A study of Mus musculus with 62 samples.

Results

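The Hox genes are homeobox genes that lie in clusters on separate chromosomes, and the data described here are the chromatin sites called at 38 of them in haematopoietic stem and progenitor cells (HSPCs). The 38 genes were chosen by name: 10 of the Hoxa cluster on chromosome 6, 10 of the Hoxb cluster on chromosome 11, 9 of the Hoxc cluster on chromosome 15 and 9 of the Hoxd cluster on chromosome 2, of 21951 protein-coding genes in the mm10 annotation. A site was taken when it overlapped one of these genes or the 5 kb on either side, which together cover 444858 bp. Over the 14 comparisons used, 592 of 1743368 listed sites met this rule, and each of the 38 genes had a site in at least 4 of the 14 comparisons.

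The libraries were made by CUT&Tag, in which an antibody to a chromatin protein or a histone mark directs the Tn5 transposase to cut and tag the DNA around it, from bone-marrow cells enriched with magnetic beads for c-Kit and freed of lineage-positive cells. All mice were of the C57BL/6 strain. By the labels they carried Mx1Cre, which is switched on by pI:pC in blood cells and also in other interferon-responsive tissues. The exception was the WT mouse of library 1 for H3.3 and Pu.1 at 3 weeks, whose genotype is given only as wild type. The other WT mice were Daxx +/+ Cre +/-, Daxx-KO mice Daxx F/F Cre +/- and DKO mice Daxx F/F with Pu.1 F/F and Cre +/-. DKO mice lacked both Daxx, a chaperone that deposits the histone variant H3.3 in heterochromatin, and Pu.1, the ETS transcription factor of myeloid and lymphoid progenitors. Cells were taken at 3, 8 or 24 weeks post induction (w.p.i.), with 2 libraries per group at 3 and 24 w.p.i. and 3 at 8 w.p.i., each library from 1 mouse by its label. By the labels, all marks at 8 w.p.i. came from one set of mice and all marks at 24 w.p.i. from another. At 3 w.p.i. the Daxx-KO mice of H3.3 and Pu.1 were not those of H3K27ac and H3K9me3. The same held for WT library 1 by its label, while WT library 2 came from the same mouse for all marks.

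Only sites that had passed the threshold of the authors' site caller are listed, so a stretch without a site has no value and no test was run across sites. A value is a normalized count, the reads of a site divided by a constant of the library. A site is called higher or lower here when every library of one group lies above every library of the other, and overlapping otherwise. With 2 libraries against 2 the smallest exact permutation p is 0.333 and with 3 against 3 it is 0.100, so no single site could reach 0.05. The size of a difference is the log2 ratio of the group means after 1 normalized count was added to each. Mean depth was 1.21 to 33.78 reads per 600-bp window in the 16 libraries at 3 w.p.i., 0.2 to 3.29 in the 18 at 8 w.p.i. and 3.97 to 10.3 in the 20 at 24 w.p.i. Over exons 1 to 3 of Daxx, the gene deleted, H3K27ac at 3 w.p.i. was 24.2 and 13.6 in the Daxx-KO libraries against 65.6 and 105 in the WT libraries. Over exons 1 to 6 it was 113 and 93.7 against 858 and 368 at 24 w.p.i. Other Daxx sites were higher in Daxx-KO mice. Exon 8 had 33.9 and 56.1 against 2.15 and 15.45 at 3 w.p.i. and 1875 and 1617 against 712 and 914 at 24 w.p.i. A site at exon 1 had 1570 and 1036 against 775 and 581 at 24 w.p.i.

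Hox proteins bind DNA together with the Meis and Pbx cofactors and give cells their position along the body axis, with genes at one end of a cluster (the anterior paralogues) used near the head and those at the other end (the posterior paralogues) near the tail. In the embryo and in blood, Trithorax proteins such as Kmt2a (Mll) keep a cluster open, where H3K27ac marks active starts and enhancers, while Polycomb repressive complex 2 writes H3K27me3 over silent Hox genes. H3K9me3 is the mark of constitutive heterochromatin and of silenced repeats and is not the usual mark of Hox genes. HSPCs use chiefly the Hoxa genes around Hoxa7, Hoxa9 and Hoxa10, and Hoxb genes such as Hoxb3, Hoxb4 and Hoxb5, which are switched off as blood cells mature and are kept on in several leukaemias.

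Both sequences below were chosen because the data turn on them. The first is the middle of the intron of Hoxa3 where an H3K9me3 site was listed in all of the 4 comparisons of that mark with WT mice, at chr6:52175501-52175800 on the plus strand of mm10, with each CpG in capitals. The second is the 250 bases before a start of Hoxa9, at chr6:52227371-52227620 on the minus strand (RefSeq, GRCm38.p6), with each GGAA or TTCC in capitals, the core that ETS factors such as Pu.1 recognise.

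Hoxa3 intron: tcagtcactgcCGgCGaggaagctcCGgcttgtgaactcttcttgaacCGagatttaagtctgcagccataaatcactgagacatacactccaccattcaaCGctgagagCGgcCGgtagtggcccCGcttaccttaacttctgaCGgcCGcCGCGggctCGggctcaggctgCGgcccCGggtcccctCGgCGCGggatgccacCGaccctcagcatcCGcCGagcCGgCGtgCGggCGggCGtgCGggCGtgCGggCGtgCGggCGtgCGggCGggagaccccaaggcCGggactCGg
Hoxa9 upstream: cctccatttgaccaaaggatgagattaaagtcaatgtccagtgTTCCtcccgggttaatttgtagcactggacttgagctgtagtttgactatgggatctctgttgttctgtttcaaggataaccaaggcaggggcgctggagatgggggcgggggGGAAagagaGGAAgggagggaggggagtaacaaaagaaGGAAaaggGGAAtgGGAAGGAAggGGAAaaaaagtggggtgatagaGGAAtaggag

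The Hoxa3 stretch lies in no exon, holds 36 CpG in 300 bases, has a GC content of 68.3% and a CpG observed-to-expected ratio of 1.03, and none of it is repeat-masked. The Hoxa9 stretch has 9 GGAA or TTCC cores, and 45.2% of it is repeat-masked. The median over 32851 mouse promoters of the same length is 3 cores, and 0.505% have at least as many as the Hoxa9 stretch. The 250 bases before a start of Hoxa7 have 2 cores, and those before starts of Hoxa10 have 3 and 2. The longer motif GAGGAAGT, read on both strands (ACTTCCTC on the other), was in neither stretch and was in 3.2% of all promoters and in 1 of the 24 promoters matched to 22 of the Hox genes. A motif match is a description of letters, not of binding.

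The clusters also hold microRNA genes between the coding spans of the Hox genes, and sites of these data cover them. Mir196b lies between the coding spans of Hoxa9 and Hoxa10, inside the annotated Hoxa9 gene, and Mir196a-2 lies between Hoxc9 and Hoxc10. Their mature 5p RNAs (RefSeq, GRCm38.p6) share the seed, bases 2 to 8, given in capitals. Mir196a-1, on the far side of Hoxb9, encodes the same RNA as Mir196a-2 and lies outside the windows used. Mir10b lies beside the coding span of Hoxd4 and its RNA has another seed.

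mmu-miR-196b-5p: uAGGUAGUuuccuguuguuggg
mmu-miR-196a-5p: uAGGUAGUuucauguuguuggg
mmu-miR-10b-5p: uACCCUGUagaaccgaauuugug

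The number of listed Hox sites and their directions differed between the marks. The longest lists were those of H3K27me3 at 24 w.p.i., with 115 sites, and for DKO against WT mice at 8 w.p.i., with 82, and listed sites covered 22.2% and 20.7% of the cluster windows, where they covered 6.41% and 2.59% of the windows of all protein-coding genes. H3K27ac sites covered 8.03% of the clusters at 24 w.p.i. and 1.57% at 3 w.p.i., below the 11.2% and 4.97% of all protein-coding genes. Coverage by H3K9me3 sites was 2.46% at 3 w.p.i. and 6.23% at 24 w.p.i. (1.29% and 4.93% for all genes). A shallower table lists fewer sites, so coverage is not compared between times. Sites at Hox genes were richer in CpG than sites at large, with a median observed-to-expected ratio of 0.50 against 0.20 for H3K27ac at 24 w.p.i. and 0.53 against 0.17 for H3K9me3 at 24 w.p.i.

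**Figure D1:**
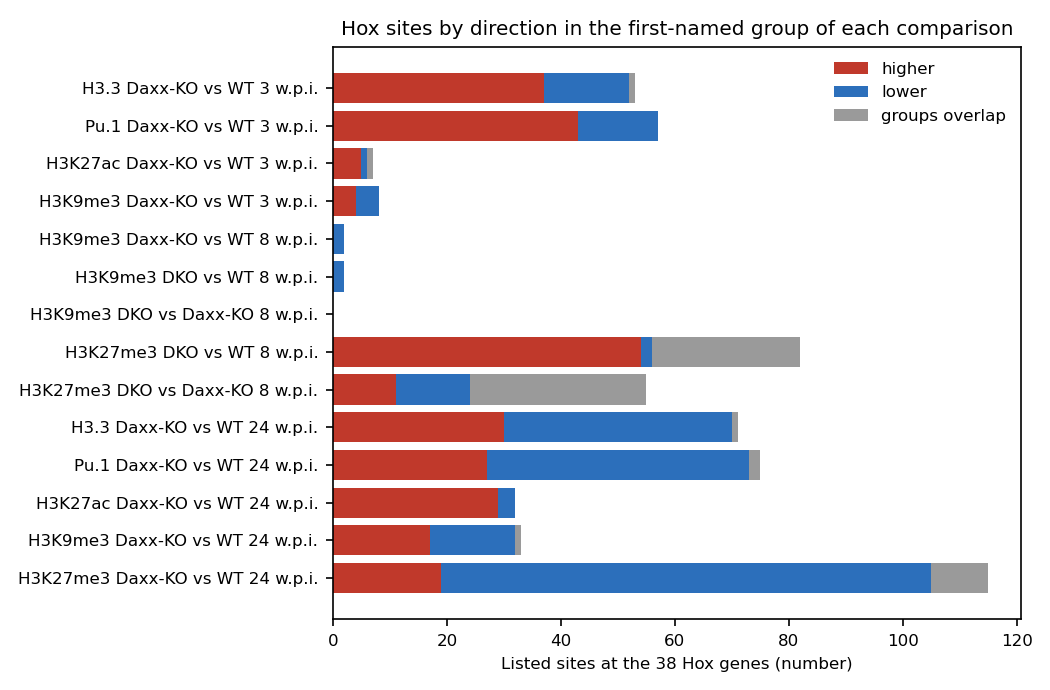
Number of listed sites at the 38 Hox genes in each of the 14 comparisons (bars), divided into sites higher in the first-named group, lower in it, or with overlapping groups. H3K27ac at 24 w.p.i. has 29 of 32 sites higher, H3K27me3 at 24 w.p.i. has 86 of 115 lower, and H3K9me3 for DKO against Daxx-KO mice has none.

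Of the 32 H3K27ac sites at 24 w.p.i., 29 were higher in Daxx-KO HSPCs and 3 were lower. That is 90.6% higher, where 41.3% of all 193657 listed H3K27ac sites were higher and 56.0% lower, and the median log2 ratio was 1.98 at the Hox sites and -1.01 over all sites. By cluster, 12 sites were higher and 1 lower at Hoxa, 8 and 1 at Hoxb, 6 and 1 at Hoxc, and 3 and 0 at Hoxd. Of the 38 genes, 20 had only higher sites, 6 had both and none had only lower sites. The other 12 had no listed site: Hoxa4, Hoxa11, Hoxa13, Hoxb7, Hoxb8, Hoxb13, Hoxc8, Hoxc12, Hoxd1, Hoxd11, Hoxd12 and Hoxd13.

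The strongest stretch ran from Hoxa6 to the last exon of Hoxa10 (chr6:52205651-52231450, 25.8 kb), where 10 consecutive H3K27ac sites were higher, by log2 ratios of 1.39 to 2.84. Over the coding exons and start of Hoxa9, a self-renewal factor of HSPCs (chr6:52224051-52227750), H3K27ac was 533 and 528 normalized counts in the 2 Daxx-KO mice and 75.96 and 169 in the 2 WT mice, a log2 ratio of 2.10 (the last value in later brackets). Both Daxx-KO values were thus over 3 times the higher WT value. Hoxa7, its neighbour and likewise used in early progenitors, had 589 and 556 against 204 and 165 over its coding exons and start (chr6:52216351-52219450, 1.63) and 511 and 625 against 240.2 and 193 over a second start upstream (chr6:52221051-52222850, 1.39). The site chr6:52229401-52231450 spans the far 5′ end of the annotated Hoxa9 gene and the 3′ end of Hoxa10, another HSPC gene of the posterior class. It holds the Mir196b sequence printed above and had 486 and 282 against 73.7 and 83.8 (2.27). These were the most heavily acetylated Hox sites listed, and the groups did not overlap at any of them.

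Smaller sites in and beside the stretch differed in the same direction. A coding exon of Hoxa6, a central paralogue, had 71.9 and 26.4 against 11.2 and 0.79 (chr6:52205651-52206600, 2.84), with one Daxx-KO value less than 3 times the higher WT value. The far 5′ exon of the long Hoxa3 transcript, which starts between Hoxa6 and Hoxa7, had 129.6 and 190.3 against 7.82 and 39.5 (chr6:52212301-52213600, 2.70). At lower coordinates, the 3′ flank of Hoxa2 had 151 and 182 against 60.3 and 56.96 (chr6:52158151-52159450, 1.49) and the Hoxa3 intron 76.4 and 46.8 against 29.04 and 3.16 (chr6:52175351-52176300, 1.87). The exception lay just past the end of the run, in a coding exon of Hoxa10 (chr6:52233701-52234350), where the Daxx-KO mice had 17.98 and 17.6 and the WT mice 55.9 and 37.97 (-1.35).

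**Figure D2:**
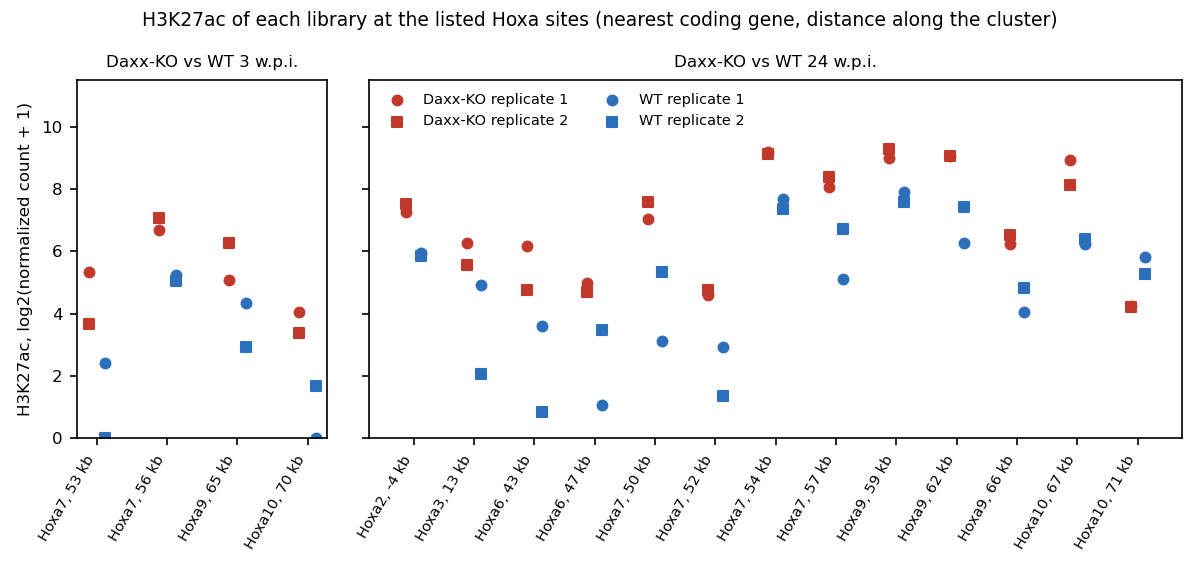
H3K27ac as log2 of the normalized count plus 1 (vertical axis) in each library at the listed Hoxa sites, named by the nearest gene and the distance in kb from the leftmost Hoxa gene analysed, at 3 w.p.i. (left) and 24 w.p.i. (right). Circles are replicate 1 and squares replicate 2 of each genotype, and at 24 w.p.i. both Daxx-KO points lie above both WT points at 12 of 13 sites.

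In the Hoxb cluster the H3K27ac differences were smaller at the HSPC gene with the most signal and larger where the WT signal was near 0. At the start of Hoxb4, a gene whose overexpression expands stem cells, the values were 186 and 187 in Daxx-KO mice against 126 and 125 in WT mice (chr11:96317801-96318400, 0.57). The 2 groups were each tight there, so that the ranges stayed apart at a ratio of the means below 1.5. Upstream of Hoxb4 the values were 247 and 116 against 62.5 and 90.97 (chr11:96314351-96315200, 1.23). A coding exon of Hoxb5, a marker of long-term stem cells, had 40.5 and 26.4 against 0 and 3.16 (chr11:96303551-96304650, 3.74), the greatest log2 ratio of the 32 sites. Hoxb1, an anterior gene of the hindbrain, had 106 and 61.5 against 32.4 and 17.4 over its exon and start (chr11:96365551-96366650, 1.71). An untranslated exon of Hoxb3 was among the 3 lower sites, with 23.98 and 14.6 against 72.6 and 33.2 (chr11:96340401-96341150, -1.41).

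At Hoxc and Hoxd, clusters that act mainly in limb and trunk, the H3K27ac sites had fewer reads. The site over Mir196a-2 (chr15:102972751-102973800) had 47.96 and 32.2 against 12.3 and 12.7 (1.61), so that Mir196a-2, like Mir196b, lay under a site that was higher in Daxx-KO mice. In an intron of the long Hoxd3 and Hoxd4 transcripts, the site chr2:74712951-74714000 had 52.5 and 29.3 against 2.23 and 4.75 (3.22). Hoxc5 had sites of both directions within 1 kb of each other, one lower with 6.74 and 19.03 against 39.1 and 43.5 (chr15:103016601-103017200, -1.61) and one higher with 31.5 and 26.4 against 4.47 and 0 (chr15:103017601-103018200, 3.21). The highest WT value of the 3 lower sites was 72.6.

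At 3 w.p.i., in other mice, 5 of 7 Hox H3K27ac sites were higher, 1 was lower and 1 overlapped, where 39.4% of all listed sites were higher and 58.2% lower. The 4 sites at Hoxa lay in the region of the later stretch or at its edge. Hoxa7 at its start had 102 and 133 in Daxx-KO mice against 36.5 and 31.99 in WT mice (chr6:52218601-52220150, 1.75), and an intron of a Hoxa9 transcript had 32.95 and 75.6 against 19.3 and 6.62 (chr6:52227451-52228950, 1.98). The other pair, over coding exons of Hoxa7 and Hoxa10, rested on few WT reads, 4.30 and 0 and 0 and 2.21 normalized counts against 39.7 and 11.9 and 15.5 and 9.34. All 4 were higher in both Daxx-KO mice than in both WT mice. The fifth higher site was beside Hoxb4, with 9.69 and 13.6 against 0 and 2.21. Hoxc10, a posterior gene of the lower trunk, was lower at 3 w.p.i. with 0 and 1.70 against 15.04 and 14.3 (chr15:102966751-102967850, -3.08) and higher at 24 w.p.i. over nearly the same bases with 34.5 and 32.2 against 13.4 and 17.4 (1.07).

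Of the Hox H3K27ac sites, 4 of 7 at 3 w.p.i. (57.1%) and 6 of 32 at 24 w.p.i. (18.8%) overlapped a site of the other time, in 6 pairs of which 5 had the same direction (83.3%). Over all listed sites 60.5% of the overlapping pairs had the same direction. The HSPC markers Kit, Cd34, Gata2, Myb and Flt3 all had sites at both times, more of them higher than lower when pooled: at 3 w.p.i. 44 of their 59 sites were higher and 13 lower, with summed values of 3517 and 4779 in Daxx-KO mice against 1881 and 1946 in WT mice, and at 24 w.p.i. 50 of 88 were higher and 35 lower, with 12009 and 12359 against 8782 and 8559. Over all listed H3K27ac sites 39.4% were higher and 58.2% lower at 3 w.p.i., and 41.3% and 56.0% at 24 w.p.i. The markers did not move as 1, with 0 higher and 5 lower sites at Gata2 at 3 w.p.i. and 3 higher and 6 lower at Cd34 at 24 w.p.i. Cd3e of T cells and Itgam and Ly6g of myeloid cells, all 3 with sites, had 1 higher and 3 lower of 4 sites at 3 w.p.i., summed values 98 and 101 against 86 and 85, and 14 higher and 5 lower of 19 at 24 w.p.i., 3602 and 3661 against 2026 and 2627, and these 3 genes do not stand for mature cells as a whole. Their part in the Hox result was not tested. In bulk cells a change in the share of one cell type and a change in the mark per cell cannot be told apart.

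H3K9me3 was lower in Daxx-KO mice at 2 places of the Hoxa cluster at 3 w.p.i. and again at 24 w.p.i., in different mice, and the Hoxa3 place was also listed as lower at 8 w.p.i. At 3 w.p.i. 4 Hox sites were higher and 4 lower, where 78.5% of all 62029 listed sites were higher and 21.1% lower, and the 4 lower ones were the 4 sites at Hoxa. In the intron of Hoxa3, a gene of the pharyngeal arches, the site chr6:52174951-52177950 had 0 and 3.33 in Daxx-KO mice against 59.5 and 51.6 in WT mice (-4.41). At the exon and start of Hoxa5 the values were 12.8 and 3.33 against 65.6 and 67.8 (chr6:52202801-52204900, -2.90), and at Hoxa6 6.98 and 10 against 78.8 and 100.3 (chr6:52205101-52207250, -3.25). Every Daxx-KO value at these 3 sites lay far below every WT value. At the coding exon of Hoxa3, both Daxx-KO libraries had 0 and the WT libraries 7 and 9.28 (chr6:52169551-52170150), few reads in any library.

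The Hoxa3 intron appeared in both comparisons with WT mice at 8 w.p.i. For Daxx-KO the 2 listed Hox sites were both lower, where 56.8% of all listed sites were higher and 32.3% lower. They had 3.62, 0 and 0 against 11.8, 26.99 and 44.96 (chr6:52174551-52175950, -3.71) and 0 in all 3 Daxx-KO mice against 14.2, 8.44 and 16.2 (chr6:52176901-52177900), at least 12.8-fold lower with a floor of 3 reads over the group. For DKO, both listed sites were again lower, where 48.0% of all sites were higher and 17.7% lower: the Hoxa3 intron with 0 in all 3 DKO mice against 6.74, 13.8 and 22.9 (chr6:52174951-52175950, at least 9.90-fold lower) and Hoxa5 with 0, 0 and 3.83 against 14.4, 10.3 and 14.3 (chr6:52203501-52204150, -2.62). The DKO libraries 1 and 2 held 0.67 and 0.21 reads per window on average, so their values of 0 say only that the mark was not detected at this depth, while DKO library 3 held 3.28. The WT libraries are the same mice in both tables, so the 2 results share their controls. DKO and Daxx-KO mice had no listed Hox H3K9me3 site between them, where 45.5% of all sites were higher and 24.3% lower, and a site that is not listed has no value.

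At 24 w.p.i. 17 Hox H3K9me3 sites were higher and 15 lower, where 46.9% of all listed sites were higher and 50.3% lower, and the clusters differed. Hoxa had 1 higher and 9 lower, Hoxb 5 higher and 0 lower, Hoxc 8 higher and 2 lower, and Hoxd 3 higher and 4 lower. Along Hoxa3, 5 consecutive lower sites spanned 10.1 kb (chr6:52167851-52177950), with 4.46 and 5.21 against 52.9 and 48.7 at the 3′ flank (-3.15) and 32.5 and 76.1 against 148 and 116 in the intron (chr6:52175351-52176450, -1.27). The intron site was thus still marked in Daxx-KO mice at this time, at less than the WT level in both. Over Hoxa5 and Hoxa6, 3 consecutive lower sites spanned 3.15 kb, with 61.2 and 41.7 against 126 and 107 in a Hoxa5 exon (-1.16) and 93.1 and 110.5 against 165 and 162 at Hoxa6 (-0.68). Beside them a 600-bp site in the same Hoxa5 exon was higher, with 49.1 and 47.9 against 21.8 and 27.2 (chr6:52202401-52203000, 0.96). Divided by the library means, this site had 10.6 and 5.05 against 2.49 and 5.56 times the mean window and the Hoxa6 site 20.1 and 11.6 against 18.7 and 33.1, so that the groups overlapped at both. Of the 9 lower Hoxa sites 7 stayed lower, with all 5 at Hoxa3 and 1 in the Hoxa5 exon among them.

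The stretch chr6:52175351-52175950 of the Hoxa3 intron, 600 bp, was the only one at a Hox gene under an H3K9me3 site in all 4 comparisons with WT mice, and the CpG-rich sequence printed above is its middle. Of the H3K9me3 Hox sites, 4 of 8 at 3 w.p.i. (50.0%) and 7 of 33 at 24 w.p.i. (21.2%) overlapped a site of the other time, and 7 of the 8 pairs had the same direction (87.5%), where 57.2% of the pairs over all listed sites did. The eighth was the Hoxa5 exon. Where the H3K9me3 was lower as deposited in the Hoxa3 intron and at Hoxa6, the H3K27ac of the same Daxx-KO mice was higher at 24 w.p.i., as given above. Pu.1 was higher there at 3 w.p.i., with 70.1 and 37.3 against 19.9 and 12.8 at Hoxa3 (chr6:52175601-52176250) and 95.3 and 115 against 47.5 and 44.8 at Hoxa6 (chr6:52205401-52206600). The Daxx-KO mice of these Pu.1 libraries were not those of H3K9me3 at that time.

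**Figure D3:**
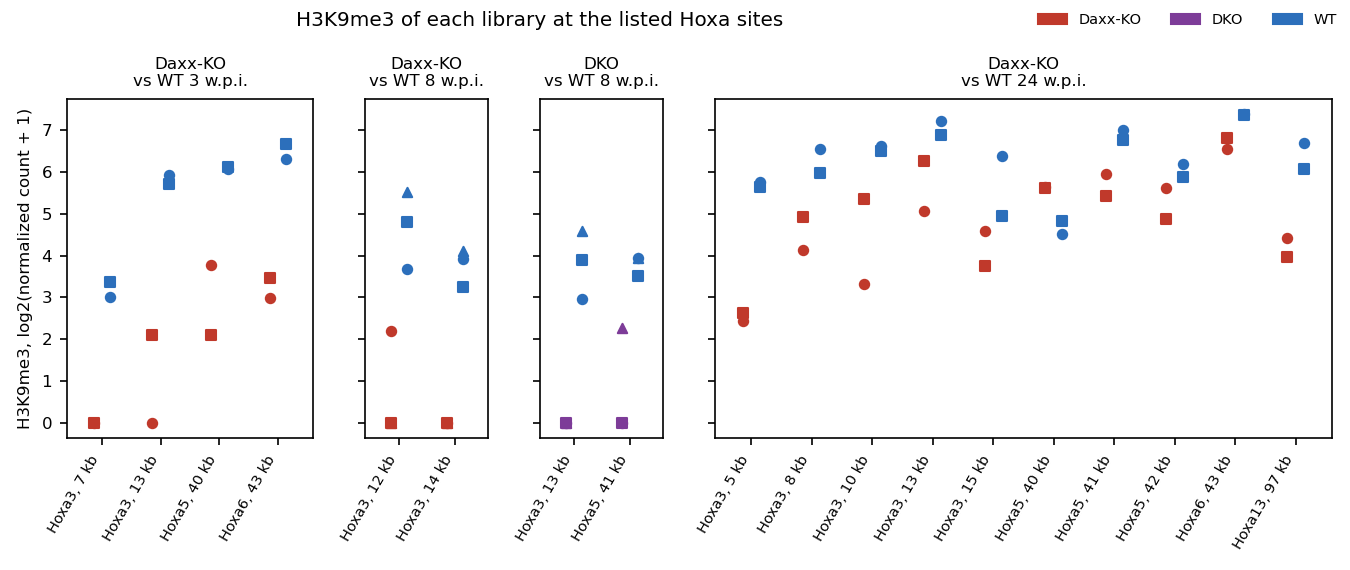
H3K9me3 as log2 of the normalized count plus 1 (vertical axis) in each library at the listed Hoxa sites of the 4 comparisons with WT mice, named by nearest gene and distance in kb from the leftmost Hoxa gene analysed. Circles, squares and triangles are replicates 1, 2 and 3, and the Daxx-KO or DKO points lie below all WT points at every site but the 1 at Hoxa5 at 24 w.p.i. where they lie above.

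Outside Hoxa, the H3K9me3 sites at 24 w.p.i. that were higher in Daxx-KO mice had little signal in WT mice. A coding exon of Hoxc13, the hair-follicle Hox gene, had 28.7 and 65.7 against 0 and 3.75 (chr15:102921501-102922100, 4.07), and the start of Hoxb1 34.4 and 126 against 6.22 and 3.75 (chr11:96365701-96366600, 3.76). The Hoxb1 exon was also higher for H3K27ac in these mice. Daxx-KO library 2 was the higher of its pair at 24 of the 33 sites, and at the Hoxc8 site chr15:102994351-102995200 it gave most of the difference (24.2 and 112 against 4.66 and 2.81). Lower sites outside Hoxa included 2 at Hoxd3 and Hoxd4, anterior and central genes of the Hoxd cluster, with 0 and 9.38 against 65.3 and 73.1 over a start of Hoxd3 (chr2:74735701-74736650, -3.62) and 0 and 8.34 against 73.1 and 46.9 at Hoxd4 (chr2:74723001-74724150, -3.56). At Hoxd3 itself, a coding exon was higher at 3 w.p.i., with 11.6 and 10 against 0 in both WT mice (chr2:74745701-74746550, at least 10.3-fold), and at 24 w.p.i., with 38.9 and 126 against 23.3 and 36.5 (chr2:74745951-74746900, 1.43).

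**Figure D4:**
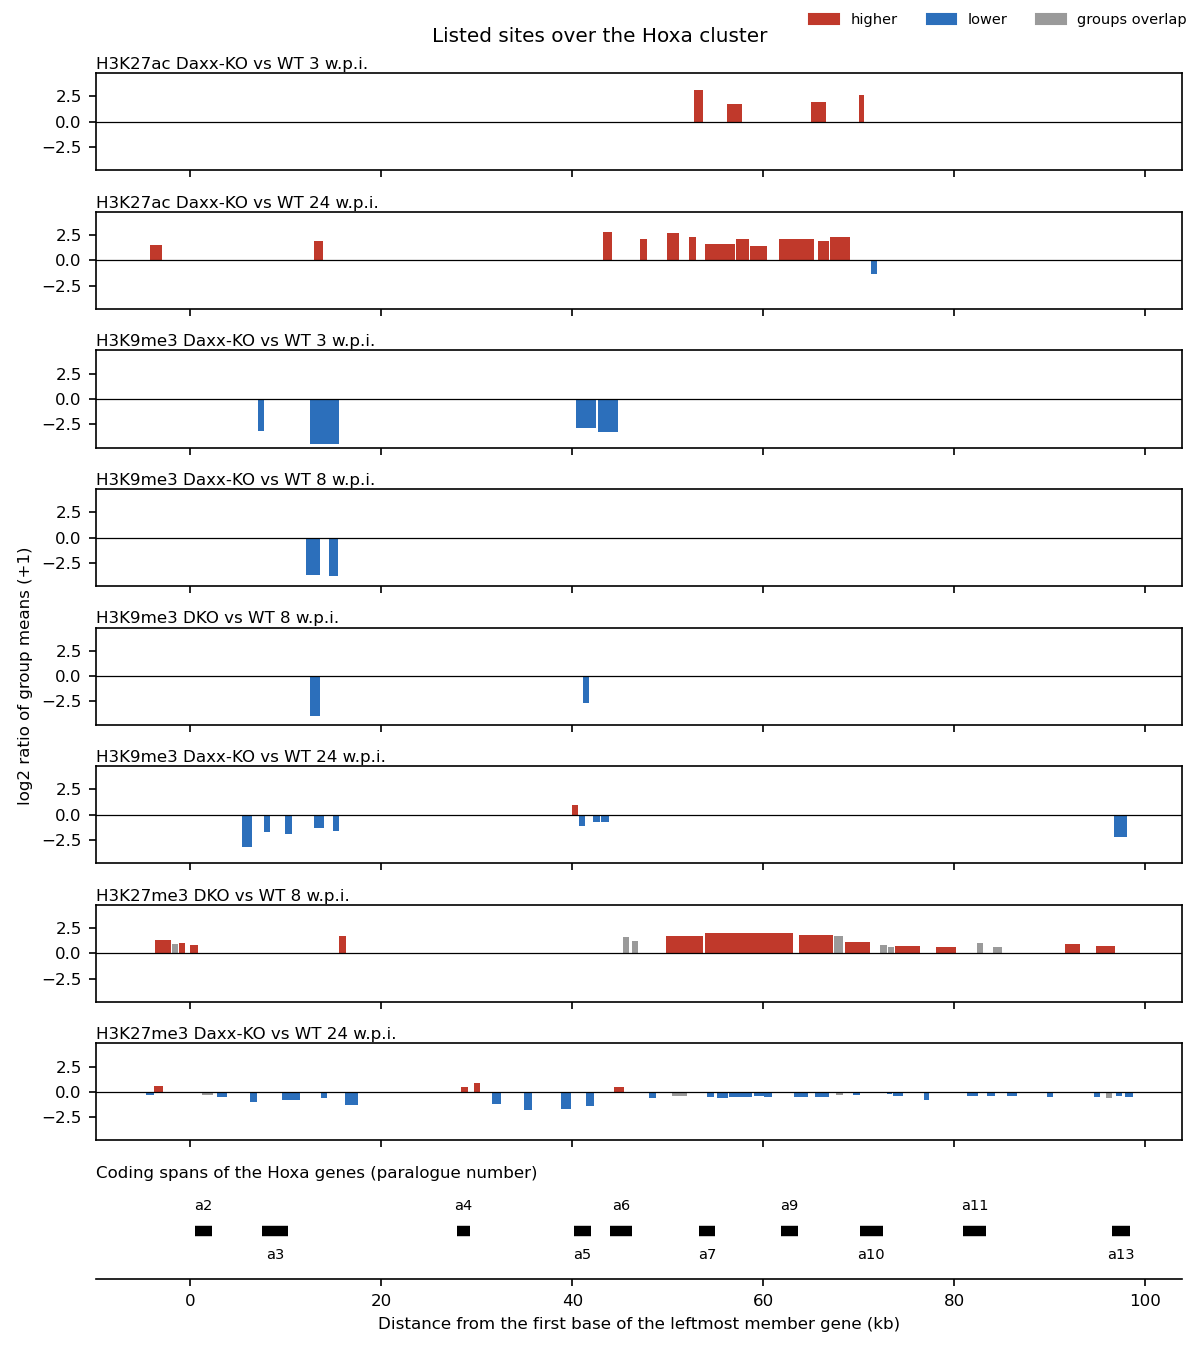
Listed sites along the Hoxa cluster for H3K27ac, H3K9me3 and H3K27me3, 1 panel for each comparison, with the log2 ratio of the group means on the vertical axis and distance in kb from the leftmost Hoxa gene analysed on the horizontal axis, and the coding spans of the genes in the lowest panel. The H3K27ac sites higher at 24 w.p.i. crowd between Hoxa6 and Hoxa10, and the lower H3K9me3 sites lie at Hoxa3 and at Hoxa5 and Hoxa6 at 3 w.p.i. and again at 24 w.p.i.

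H3K27me3, the Polycomb mark, was listed at all 38 Hox genes at 24 w.p.i., with 86 of 115 sites lower in Daxx-KO mice, 19 higher and 10 overlapping. Over all 134001 listed sites 56.8% were lower and 40.8% higher, against 74.8% and 16.5% at the Hox sites, and the median log2 ratio was -0.42 at the Hox sites and -0.81 over all sites, so the Hox differences were more one-sided but smaller. This split rests on how the libraries are scaled. After scaling, the mean window still held 5.3 and 6.36 normalized counts in the Daxx-KO and 8.95 and 6.1 in the WT libraries, and when reads were instead divided by the mean of each library, 16 sites were lower and 18 higher (52.9% of the called sites higher, in place of 18.1%), each in the same direction as before. H3K27ac at 24 w.p.i. kept 29 higher sites and had 2 lower under the same change. Its mean window held 5.39 and 5.84 normalized counts in the Daxx-KO and 8.38 and 8.17 in the WT libraries. The change therefore raised every Daxx-KO value against every WT value, and no higher H3K27ac site could lose its call.

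Under the deposited scaling the lower sites took in 14 of the 18 over a transcript start, and none of these 18 was higher. Hoxa9 at its start had 841 and 979.8 in Daxx-KO mice against 1133 and 1474 in WT mice (chr6:52225601-52227150, -0.52), Hoxa7 653 and 565 against 865 and 955 (chr6:52217551-52218750, -0.58) and Hoxb5 725 and 609 against 788 and 857 (chr11:96302801-96303750, -0.30). These are among the most heavily marked sites, and their ratios are near 1. Divided by the library means, the Hoxa9 start had 159 and 154 times the mean window in Daxx-KO and 127 and 241 in WT mice, so the groups overlapped, as they did at all 18 starts. A run of 18 lower sites from Hoxa7 to Hoxa13 (chr6:52216551-52261100, 44.5 kb) had log2 ratios of -0.81 to -0.20, and 14 from Hoxd13 to Hoxd8 (chr2:74670401-74704100, 33.7 kb) of -0.80 to -0.21, and of the 53 sites at posterior paralogues 45 were lower as deposited and 3 after the change of scale.

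The sites that kept their direction under both scalings lay mostly at anterior and central genes. Hoxa5, a central gene of lung and trunk, was lower in its 3′ flank with 14.4 and 15.6 against 47.6 and 62.8 (chr6:52197351-52198150, -1.81) and over its last exon with 19.9 and 20.2 against 68.2 and 62.8 (chr6:52201201-52202250, -1.66). In units of the mean window, the latter had 3.78 and 3.17 against 7.62 and 10.3. Around Hoxb4 both directions stood side by side: upstream sites in the direction of Hoxb5 were higher, with 102 and 90.2 against 39.2 and 38.5 (chr11:96311901-96313300, 1.28) and 65.4 and 66.2 against 33.6 and 27.1 (chr11:96314251-96314850, 1.09). The gene itself was lower just past its start, with 30.3 and 33.1 against 90.6 and 84.2 (chr11:96318301-96319000, -1.43), and so was chr11:96329551-96330850 downstream, with 36.7 and 29.4 against 110.2 and 94.2 (-1.60). All 4 of these Hoxb4 sites kept their direction with the library means, and within them the 2 mice of a genotype differed by far less than the genotypes did.

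At 8 w.p.i. DKO mice had more H3K27me3 than WT mice at 54 of 82 Hox sites, less at 2, and overlapping values at 26, where 48.0% of all 61831 listed sites were higher and 41.6% lower. The mean was higher at 80 of the 82. By cluster, 12 sites were higher at Hoxa, 23 at Hoxb, 15 at Hoxc and 4 at Hoxd, and both lower sites were at Hoxd. The widest site, 9200 bp from Hoxa7 to Hoxa9 (chr6:52216301-52225500), had 1913, 487 and 598 in the 3 DKO mice and 219, 226 and 299.6 in the 3 WT mice (2.01). The start of Hoxa9 had 616, 174 and 319 against 109, 84.2 and 118 (chr6:52226201-52229750, 1.82), and Hoxb5 at its start 196, 114 and 67.6 against 39.4, 38.95 and 49.2 (chr11:96302501-96303800, 1.54). DKO library 1 was the highest in each, as at 55 of the 82 sites. Without it 56 sites were higher and 3 lower, but leaving out a library only eases the rule for a call. No higher site could be lost this way, so the count does not show how far the result rests on that library.

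Scaling also bears on the 8 w.p.i. result, since 15 sites were higher and 2 lower when reads were divided by the library means (88.2% of called sites higher, in place of 96.4%). At the wide Hoxa7 to Hoxa9 site the groups then overlapped. The sites that stayed higher were led by anterior genes, 8 of the 15. An intron of Hoxb3, which is active in HSPCs, had 37.4, 27.9 and 33.8 in DKO and 6.12, 2.72 and 10.1 in WT mice (chr11:96337101-96338250, 2.22), or 24.6, 11.1 and 17.5 against 3.78, 1.39 and 7.50 times the mean window. Hoxb1 had 23.8, 29.7 and 55.6 against 1.75, 14.5 and 6.71 (chr11:96360501-96361600, 2.11). Both lower sites, in the introns of the long Hoxd3 and Hoxd4 transcripts, also kept their direction, with 9.06, 16.6 and 18.5 against 32.4, 44.4 and 26.8 (chr2:74719901-74720500, -1.18) and 39.6, 25.3 and 53.4 against 69.97, 65.2 and 79.4 (chr2:74724051-74724650, -0.84).

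Set against Daxx-KO mice, the DKO mice had 11 higher, 13 lower and 31 overlapping H3K27me3 sites of 55, where 55.9% of all 59565 listed sites were higher and 28.5% lower. Without DKO library 1, 28 sites were lower, without Daxx-KO library 2, 20, and without DKO library 2, 18 were higher. Single libraries thus kept some of the sites overlapping, and leaving out a library can only add calls. By position in the cluster, of 11 sites at anterior paralogues 9 were higher and none lower, of 13 at central paralogues none was higher and 5 lower, and of 31 at posterior paralogues 2 were higher and 8 lower. Hoxb held 6 of the 9 higher anterior sites, and the 2 higher posterior sites were at Hoxa. With the library means the counts were 6 and 0, 0 and 4, and 1 and 8. An untranslated exon of Hoxb3 had 12.6, 12.1 and 22.3 in DKO and 1.65, 0 and 0.66 in Daxx-KO mice (chr11:96346801-96347600, 3.23), and the Hoxb3 intron 37.7, 32.2 and 33.5 against 9.88, 4.35 and 5.26 (chr11:96337201-96338150, 2.24). The Hoxd4 intron had 43.95, 29.1 and 60.8 against 89.8, 76.1 and 98.05 (chr2:74724051-74724650, -0.96). The DKO libraries are those of the comparison with WT mice, so that the values for Hoxb3 and Hoxd4 above are not separate evidence. Only 1 of the 55 sites lay over a start, that of Hoxa9, with 237, 97.5 and 130.3 against 51.1, 91.3 and 81.6 (chr6:52226751-52228200, 1.04), and with the library means its groups overlapped.

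**Figure D5:**
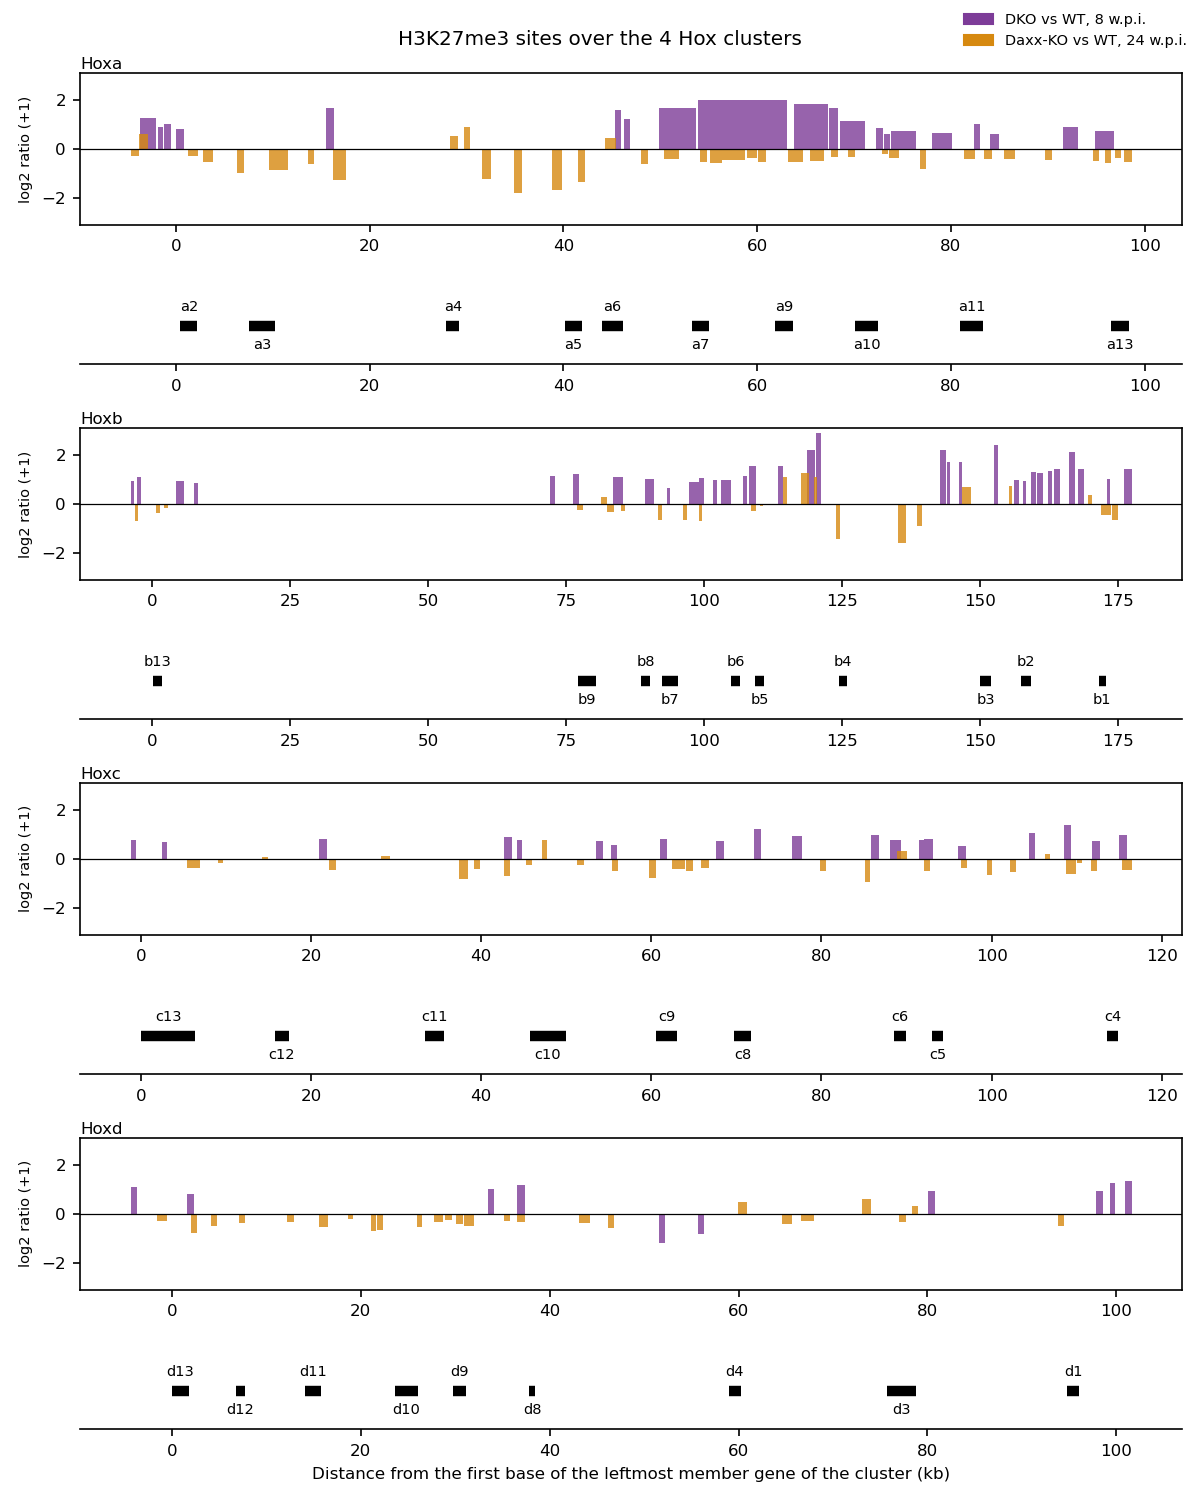
Listed H3K27me3 sites along the Hoxa, Hoxb, Hoxc and Hoxd genes, with the log2 ratio of the group means on the vertical axis and distance in kb from the leftmost gene analysed of each cluster on the horizontal axis, for DKO against WT mice at 8 w.p.i. and Daxx-KO against WT mice at 24 w.p.i., and the coding spans of the genes under each. Most bars of the first comparison point up (80 of 82) and most of the second point down (96 of 115), on the deposited scaling.

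At 24 w.p.i. 19 of the 32 Hox H3K27ac sites (59.4%) and 23 of the 115 Hox H3K27me3 sites (20.0%) overlapped each other, in libraries from the same mice, where 20.0% and 27.1% of all listed sites of these marks did. Both marks were called in 21 of the 25 overlapping pairs, and in 19 of these H3K27ac was higher and H3K27me3 lower (90.5%), where 37.9% of all such pairs of the 2 tables had that pattern. With the library means, 4 pairs were still called and 2 had the pattern (50.0%, and 39.6% of all pairs). Most H3K27me3 calls gave way to overlapping groups, none to the opposite direction. The H3K27ac calls were mostly kept, but the change of scale could not undo a higher H3K27ac call. Of the Hox H3K9me3 sites at 24 w.p.i., 19 of 33 (57.6%) overlapped an H3K27me3 site, where 13.4% of all listed H3K9me3 sites did. Counted from the other mark, 21 of the 115 Hox H3K27me3 sites (18.3%) overlapped an H3K9me3 site, where 15.1% of all listed H3K27me3 sites did. Listed H3K27me3 sites covered 22.2% of the cluster windows and 6.41% of the windows of all protein-coding genes.

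H3.3, the histone variant that Daxx deposits, and Pu.1 were listed at most Hox genes at 3 w.p.i., 34 and 30 of 38, and higher sites prevailed. For H3.3, 37 of 53 sites were higher in Daxx-KO mice and 15 lower, where 58.7% of all sites were higher and 39.7% lower. Pu.1 had 43 higher and 14 lower of 57, where 55.3% and 42.8% of all sites were. The excess lay at Hoxa (11 higher and 1 lower for H3.3, 16 and 3 for Pu.1) and Hoxb (12 and 0, 15 and 1), and less so at Hoxc (11 and 6, 8 and 4), and not at Hoxd (3 and 8, 4 and 6). WT library 2 was shallow, with 3.06 and 2.75 reads per window for H3.3 and Pu.1 against 22.88 and 33.78 in WT library 1, and 1 of its reads counts for 2.63 and 3.23 normalized counts.

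At the Hoxa3 gene itself both were higher, H3.3 with 47.4 and 39.1 against 10.5 and 0 (chr6:52177501-52178100, 2.82) and Pu.1 with 106 and 73.8 against 24.6 and 0 (chr6:52171851-52172700, 2.77), where the 0 in each is the shallow library. H3.3 over the start of Hoxa9 was 37.9 and 33.9 against 8.41 and 20.9 (chr6:52226801-52227450, 1.23), and 6 consecutive higher H3.3 sites ran from Hoxa6 to there (20.6 kb). At Hoxc8, a trunk gene, the exon and start were higher for H3.3 with 141 and 70.7 against 23.1 and 18.3 (chr15:102990201-102991350, 2.29). A site about 3 kb away was lower with 0.79 and 5.90 against 58.2 and 39.3 (chr15:102987151-102987800, -3.52). Pu.1 was higher at 7 consecutive sites over 18.2 kb from Hoxb8 to Hoxb6, by log2 ratios of 1.11 to 2.24, and lower at a Hoxd12 exon with 21.3 and 10.5 against 63.2 and 115 (chr2:74676451-74677450, -2.41). At the Mir10b gene beside Hoxd4, H3.3 and Pu.1 were both lower at 3 w.p.i., with log2 ratios of -1.78 and -2.35.

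At 24 w.p.i. the balance at Hox genes was the other way, with 30 H3.3 sites higher and 40 lower of 71 (51.3% and 47.0% of all sites) and 27 Pu.1 sites higher and 46 lower of 75 (46.9% and 51.3%). Several H3.3 sites were at 0 in one genotype. A coding exon of Hoxa9 had 0 in both Daxx-KO mice and 59.96 and 66.8 in the WT mice (chr6:52224751-52225800, at least 37.8-fold lower), and the exon and start of Hoxb5 had 0 against 47.05 and 46.1 (chr11:96303501-96304400, at least 27.8-fold lower). An intron site of Hoxd3 beside Hoxd4 had 83.9 and 35.1 against 0 in both WT mice (chr2:74733401-74734050, at least 42.4-fold higher). These are all-or-none values in H3.3 libraries of a mean of 5.79 reads per window or more. Over the start of Hoxa7, H3.3 was 33.1 and 231 against 26.8 and 18.8 (chr6:52217351-52218450, 2.48), where Daxx-KO library 2 gave nearly the whole difference.

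Pu.1 at 24 w.p.i. was lower at 11 and higher at 3 of the 14 Hox sites over a start. Across the start of Hoxa9, which overlaps the GGAA-rich sequence printed above, Pu.1 was 4.77 and 10.4 in Daxx-KO mice against 60.5 and 44.2 in WT mice (chr6:52227201-52228050, -2.63). At the inner start of Hoxa7 it was higher, 32.7 and 31.3 against 10.1 and 8.42 (chr6:52218401-52219000, 1.69), and at the outer one lower, 0 and 27.2 against 53.2 and 117 (chr6:52221301-52222400, -2.56). Some neighbouring sites had opposite directions. Near Hoxa4, chr6:52186501-52187650 had 28.6 and 107 against 2.88 and 1.05 (4.53), while chr6:52187901-52188650, less than 1 kb further, had 0 in both Daxx-KO mice against 69.1 and 34.7 (at least 42-fold lower). Within 1 kb of a site of the other direction were 16 of 71 H3.3 and 13 of 75 Pu.1 sites at 24 w.p.i. Of these, 6 for each protein overlapped such a site. The counts at that time were 2 of 32 for H3K27ac, 2 of 33 for H3K9me3 and 4 of 115 for H3K27me3. At 3 w.p.i. they were 4 of 53 for H3.3, 12 of 57 for Pu.1, 0 of 7 for H3K27ac and 0 of 8 for H3K9me3. The share over all listed sites was not computed. The motif GAGGAAGT was in the central 600 bp of 0 of 57 Hox Pu.1 sites at 3 w.p.i. and of 4 of 75 (5.33%) at 24 w.p.i., where 4.21% and 4.16% of all Pu.1 sites had it.

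Between 3 and 24 w.p.i. the directions of H3.3 and Pu.1 at Hox genes matched in 7 of 14 overlapping H3.3 pairs and 9 of 18 Pu.1 pairs (50.0% each, and 51.2% and 47.9% over all sites). These took in 13 of 53 (24.5%) and 14 of 71 (19.7%) H3.3 sites and 18 of 57 (31.6%) and 17 of 75 (22.7%) Pu.1 sites. H3.3 and Pu.1 libraries of the same mice shared the direction in 11 of 15 overlapping pairs at 3 w.p.i. (73.3%, and 78.8% over all sites) and in 10 of 20 called pairs at 24 w.p.i. (50.0%, and 50.6%). At none of these did the Hox genes stand far from the listed sites at large.

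Genes that work with or on the Hox clusters did not share the one-sided H3K27ac at 24 w.p.i. Over all listed H3K27ac sites of that time, 41.3% were higher and 56.0% lower. The 9 cofactor genes (Meis, Pbx and Pknox) had 57 higher and 70 lower sites of 130, the 4 genes of Kmt2a and its partners 23 and 27 of 54, and 13 Polycomb genes 54 and 67 of 122. Of the 3 Cdx genes, which switch Hox genes on in the embryo, 2 had sites, 4 higher and 2 lower. The genes that flank the clusters, 8 of 9 with a site, had 24 higher and 24 lower of 52. Meis1, the cofactor that acts with Hoxa9 in HSPCs and leukaemia, had 15 higher and 11 lower sites at 24 w.p.i. and 17 higher and 3 lower at 3 w.p.i. At 3 w.p.i. the cofactors had 49 higher and 41 lower of 93, Kmt2a and partners 3 and 14 of 17 and the Polycomb genes 12 and 30 of 44. Cdx had 0 and 2 of 2 and the flanking genes 12 and 13 of 26, where 39.4% of all listed sites were higher and 58.2% lower. For H3K27me3 at 24 w.p.i. the cofactors had 90 higher and 41 lower of 136 sites, the Polycomb genes 19 and 32 of 58 and Kmt2a and partners 5 and 5 of 10. Cdx had 1 and 13 of 15 and the flanking genes 36 and 43 of 79, all on the deposited scaling. Of all listed sites of that comparison 40.8% were higher and 56.8% lower. For DKO against WT mice at 8 w.p.i., the cofactors had 30 higher and 61 lower H3K27me3 sites of 97 and the Polycomb genes 16 and 0 of 28. Cdx had 7 and 1 of 10 and the flanking genes 31 and 2 of 40, where 48.0% of all listed sites were higher and 41.6% lower.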

How the data were processed

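CUT&Tag libraries of HSPCs were processed by the authors with CASAVA 1.8.4, cutadapt 1.13, STAR 2.5.3 and bedtools on mm10 (submitters' processing notes, which give no roles). The file headers record diffReps 1.55.6 with 600-bp windows, 50-bp steps, 100-bp fragments, a negative binomial test and a window p cutoff of 0.0001. The values used are the normalized counts deposited by the authors, 1 per library and site, which are reads divided by a constant given in the header, so 1 read has a known value: all 628 Hox values of up to 20 reads came out whole within 0.25. The tables for 24 w.p.i. leave out reads on X and Y. The authors' fold changes, p-values and calls were not used.

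The 38 genes, the lists of other genes and the rules were chosen with earlier results of these data known. Of the list of mature-cell markers, only the 3 named in the text were used, and the rest of that list is not reported here. Gene positions were those of GENCODE M21. Of 62 libraries 54 were used, and the 8 DKO libraries at 24 w.p.i. were in no table. The table of H3K27me3 for Daxx-KO against WT mice at 8 w.p.i. was left out because its control columns name H3K9me3 libraries. One WT mouse is labelled only as wild type.

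Groups were read from the labels. Sites named by rule were, in each comparison and direction, up to 2 with the largest log2 ratio among those with a mean of at least 10 normalized counts in the higher group, and sites over the start of Hoxa7, Hoxa9, Hoxa10, Hoxb3, Hoxb4 or Hoxb5. Other named sites were chosen after their values were seen. Overlap was at least 1 bp. A fold against a group at 0 was set against 3 reads over that group, and covers counting error only. Alternatives were gene bodies alone, flanks of 20 kb, a mean of at least 20, an absolute log2 ratio of at least 1, means alone, scaling by the mean reads per window, merging of sites within 1 kb, and leaving out each library. The functions were tested on simulated data. Python 3.11.15, numpy 2.4.6, pandas 2.3.3 and matplotlib 3.10.9 were used.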

Additional observations from a re-analysis of the deposited data

Results flagged for a closer look

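At 18 pairs of overlapping Hox sites, all libraries moved one way at 3 w.p.i. and the opposite way at 24 w.p.i., in different mice. The difference between the times was not tested, and the values below are the log2 ratio at 24 w.p.i. minus that at 3 w.p.i., by the start of the site at 3 w.p.i. Such pairs were as common as same-direction pairs for H3.3 and Pu.1 and were single cases for H3K27ac and H3K9me3.

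For H3.3 there were 7. In the Hoxd cluster, sites lower at 3 w.p.i. and higher at 24 w.p.i. began at chr2 positions 74699801 (3.78, at Hoxd9) and 74708451 (7.50, at Hoxd8). Others of this kind began at 74725851 (3.90, at Hoxd4) and 74747251 (4.30, at Hoxd3), and between Hoxc9 and Hoxc10 at chr15 position 102975551 (7.02). The reverse was seen at Hoxb13 from chr11 position 96195451 (-4.63) and at Hoxc4 from chr15 position 103033601 (-4.28). The Hoxd9 site also overlapped another 24 w.p.i. site, chr2:74699901-74701050, and that pair was lower at both times (-1.94 and -3.42). Some overlaps were short. The site between Hoxc9 and Hoxc10 ended at 102976150 and the later one began at 102976101. The Hoxb13 site ended at 96196350 and the later one began at 96196301.

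For Pu.1 there were 9, of which 8 were higher at 3 w.p.i. and lower at 24 w.p.i. They began at chr11 positions 96283201 (-4.59, at Hoxb8) and 96299351 (-4.34, at Hoxb6), at chr15 positions 102954451 (-6.43, at Hoxc11) and 102967351 (-3.65, at Hoxc10), at chr2 positions 74675651 (-1.97, at Hoxd12) and 74727501 (-3.55, at Hoxd4), and at chr6 positions 52233351 (-5.71, at Hoxa10) and 52253101 (-4.26, at Hoxa13). The other, beside Hoxa2 from chr6 position 52159551, went from lower to higher (3.20). Its 24 w.p.i. partner ended at 52159600 and also overlapped a site from 52158951 that was higher at both times (0.55 and 2.0).

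H3K27ac went from lower to higher at Hoxc10 from chr15 position 102966751 (4.15), and H3K9me3 from lower to higher in the Hoxa5 exon from chr6 position 52202801 (3.86). When reads were divided by the library means, the groups overlapped at 24 w.p.i. in this Hoxa5 exon and at 3 w.p.i. at the H3.3 site from chr15 position 102975551, so these differences hold only on the deposited scaling. The later H3K9me3 site at Hoxa5 covers only the 3′ part of the earlier one.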

How the results depend on the processing

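Of the counts recomputed under a setting other than leaving out a library, 201 stayed within 1.5 times the reported count and 31 did not. Of those with a library left out, 129 stayed and 3 did not. Leaving out a library can only add calls under the rule used, so this check could not show a result resting on a single library. With reads divided by the library mean, 16 sites were lower at 24 w.p.i. (86 as reported), 15 higher for DKO against WT (54) and 7 higher for DKO against Daxx-KO (11), and 9 Pu.1 sites were lower at 3 w.p.i. (14). An absolute log2 ratio of at least 1 left 29 higher and 1 lower for DKO against WT, 0 lower for DKO against Daxx-KO and 3 higher and 7 lower at 24 w.p.i. for H3K27me3. Means alone gave 21 higher and 34 lower for DKO against Daxx-KO. Gene bodies alone gave 6 higher and 5 lower for DKO against Daxx-KO, 32 higher for DKO against WT, 11 H3K27me3 sites higher at 24 w.p.i. and 9 Pu.1 sites lower at 3 w.p.i. Flanks of 20 kb gave 20 higher for DKO against Daxx-KO, 4 lower for DKO against WT and 2 H3K27ac sites lower at 3 w.p.i. A mean of at least 20 left 3 H3K27ac sites higher and 0 lower and 0 H3K9me3 sites higher at 3 w.p.i., and at 8 w.p.i. 1 H3K9me3 site lower for Daxx-KO and 0 for DKO. Merging within 1 kb left 1 such site for Daxx-KO. Within 1 kb, pairs between 3 and 24 w.p.i. numbered 16 with the same and 16 with the opposite direction for H3.3, 20 and 17 for Pu.1, and 10 and 2 for H3K27ac. Leaving out each library in turn, DKO against Daxx-KO gave 12 to 18 higher and 13 to 28 lower H3K27me3 sites and DKO against WT 55 to 69 higher. The cause of these moves was not tested. Coverage and position were not recomputed under the alternatives, other than position under the library means. No paired analysis was possible because the genotypes were different mice, the labels state no pairing behind the shared replicate numbers, and no model was fitted that could hold a block. The depth at 8 w.p.i. limits the H3K9me3 values of 0.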
